A study of Mus musculus with 48 samples.

Results

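Transcripts of 10 genes of the integrated stress response and the unfolded protein response were followed in mouse liver: Atf4, Ddit3, Atf3, Trib3, Asns, Chac1, Hspa5, Xbp1, Fgf21 and Gdf15. The genes were chosen by name, each was found by its Ensembl identifier, and they are 10 of the 55416 genes counted in each liver. All 10 passed the filter on low counts that left 15711 genes for testing. RNA came from 48 mouse livers, all with the strain label C57Bl/6J, in 2 mouse studies of LXRα, the nuclear receptor encoded by Nr1h3 that senses oxysterols. The knock-in study (DN) holds mice with the dominant negative p.W441R substitution of LXRα, and the knockout study (KO) holds mice that lack LXRα, in each case with wild-type (WT), heterozygous (HET) and homozygous (HOM) mice from crosses of heterozygotes, 8 livers per group. All 6 groups received a western diet with 0.2% cholesterol for 8 weeks, from 8 to 16 weeks of age, so that diet is shared by all livers analysed here. The knock-in mice were male and came from a line bred from a CRISPR-edited founder. The knockout line, which lacks the receptor in all tissues, came from a mixed background, had been backcrossed to C57BL/6, per the study's methods, and was kept at another site, so study, site and line cannot be told apart where groups of the 2 studies are compared.

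The integrated stress response is a shared pathway in which kinases that sense amino acid shortage, double-stranded RNA, haem deficiency or unfolded protein in the endoplasmic reticulum (ER) phosphorylate the translation factor eIF2α. General translation then falls while the mRNA of the transcription factor ATF4 is translated more, and ATF4 with its partners drives genes for amino acid supply, for further transcription factors and for the arrest or reversal of the response. The unfolded protein response adds a branch through ATF6, which induces ER chaperones such as Hspa5, and a branch through IRE1, which splices the Xbp1 mRNA. In liver the response also induces the secreted hormones Fgf21 and Gdf15. Translation of Atf4 and splicing of Xbp1 cannot be seen in counts of reads per gene, so their transcripts speak only to mRNA abundance. In whole liver, fewer cells of a type and less RNA per cell cannot be told apart.

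Promoter sequences are shown for 5 of the genes, since genes that share an element moved in different directions. Windows from 250 bases before to 50 bases after the start site were matched by symbol for all 10 genes in RefSeq (GRCm38.p6), 11 windows in all because Gdf15 has 2. The CARE, an element bound by ATF4 with C/EBP partners, was searched as TGATGNAA on both strands. It lay in the windows of Asns, Atf3, Chac1, Fgf21 and Trib3, that is 5 of 10 genes, and in 3.97% of the 32851 windows of all genes. The ER stress response element, searched on both strands as CCAAT and CCACG with 9 bases between them, lay in the Hspa5 window and in 0.119% of all windows. The 250 bases before each start site follow 5′ to 3′ on the strand of the gene, with the fixed letters of the CARE or its reverse complement in capitals for the first 4 genes and those of the ER stress response element in capitals for Hspa5. Their positions in GRCm38.p6 are chr6:7693210-7693459 (minus strand), chr1:191183334-191183583 (minus), chr2:119350992-119351241 (plus), chr7:45615491-45615740 (minus) and chr2:34771840-34772089 (plus).
Asns: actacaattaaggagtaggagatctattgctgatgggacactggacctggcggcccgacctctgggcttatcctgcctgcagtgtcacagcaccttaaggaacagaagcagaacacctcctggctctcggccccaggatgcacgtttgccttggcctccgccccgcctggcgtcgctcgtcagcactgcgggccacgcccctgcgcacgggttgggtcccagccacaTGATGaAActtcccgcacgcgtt
Atf3: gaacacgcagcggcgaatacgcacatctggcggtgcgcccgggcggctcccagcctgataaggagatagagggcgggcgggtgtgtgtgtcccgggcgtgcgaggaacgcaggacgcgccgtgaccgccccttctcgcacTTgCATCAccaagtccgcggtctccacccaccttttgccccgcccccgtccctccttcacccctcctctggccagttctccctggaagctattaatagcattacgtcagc
Chac1: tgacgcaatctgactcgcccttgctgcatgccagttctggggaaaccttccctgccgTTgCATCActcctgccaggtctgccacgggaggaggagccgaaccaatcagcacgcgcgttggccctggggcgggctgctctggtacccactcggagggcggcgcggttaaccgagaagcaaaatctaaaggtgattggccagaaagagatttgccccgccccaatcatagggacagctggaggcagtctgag
Fgf21: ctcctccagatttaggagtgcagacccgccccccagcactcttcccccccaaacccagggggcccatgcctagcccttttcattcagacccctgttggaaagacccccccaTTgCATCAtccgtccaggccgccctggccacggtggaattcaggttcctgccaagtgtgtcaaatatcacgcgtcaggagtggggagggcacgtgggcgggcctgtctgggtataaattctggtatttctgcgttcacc
Hspa5: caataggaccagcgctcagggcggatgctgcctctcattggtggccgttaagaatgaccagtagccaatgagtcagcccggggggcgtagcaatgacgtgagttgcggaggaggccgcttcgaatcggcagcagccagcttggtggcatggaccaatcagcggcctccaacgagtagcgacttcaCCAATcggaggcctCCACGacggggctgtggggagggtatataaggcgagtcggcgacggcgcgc

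With the start site as position 0, the first base of the CARE lay at -23 in Asns, -110 in Atf3, -193 in Chac1, -139 in Fgf21 and 14 in Trib3, where it is past the part shown. The ER stress response element of Hspa5 began at -65. No window of the 10 genes held TGACGTGG, the core of the element bound by XBP1 and ATF6 (0.676% of all windows), TGACGTCA, the cyclic AMP response element that ATF3 can bind (1.79%), or 2 copies of GGTCA with 5 bases between them, a direct repeat of the kind bound by LXR (0.0761%), each searched on both strands. The motifs searched do not overlap in these windows. A match describes letters in a window, and no binding was measured.

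Levels are given as counts per 1000000 reads (CPM) scaled by edgeR's TMM method, and n is 7 livers in DN:WT and DN:HOM and 8 in each other group. Reads on genes lay between 5332897 and 16961379 per liver, with 2 livers of the knockout study under 10000000. Nr1h3 itself had 82.3 to 96.3 CPM in DN:WT, 68.9 to 77.4 in DN:HOM, 81.1 to 109 in KO:WT, 48.2 to 66.1 in KO:HET and 24.9 to 30.9 in KO:HOM livers. The library labelled DN:WT animal 10 and the library labelled DN:HOM animal 12 go against their labels. The former had 1219.6 CPM of the fatty acid desaturase Scd1, near the 350.1 to 1094 of the other DN:HOM livers, and the latter had 42564 CPM, within the 22257 to 45330 of the other DN:WT livers. The values of Nr1h3, Fasn and Gpnmb and the TMM factors of both libraries lay on the same side. Source data behind the study's own knock-in expression plot hold 7 livers in each of these groups, which an earlier analysis matched to all livers but these 2. The study's caption for its heatmap of liver expression gives n = 8. No liver was moved to another group, and results are over 46 livers without them unless all 48 are named.

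In homozygous knock-in livers Atf3, Asns and Ddit3 rose and Chac1 fell, while Atf4, Trib3, Hspa5, Xbp1, Fgf21 and Gdf15 did not pass the test. An adjusted p under 0.05 was the threshold, and 59.1% of all genes tested passed it in this comparison, 29.1% higher and 30% lower, and in 33.3% the groups did not overlap. The 4 of 10 genes called were therefore a smaller share than that of all genes. The median log2 fold change of the 10 genes was 0.13, against -0.01 over all genes tested. Over all 48 livers 2 of the 10 genes were called, Atf3 and Asns, with 48% of all genes.

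**Figure D1:**
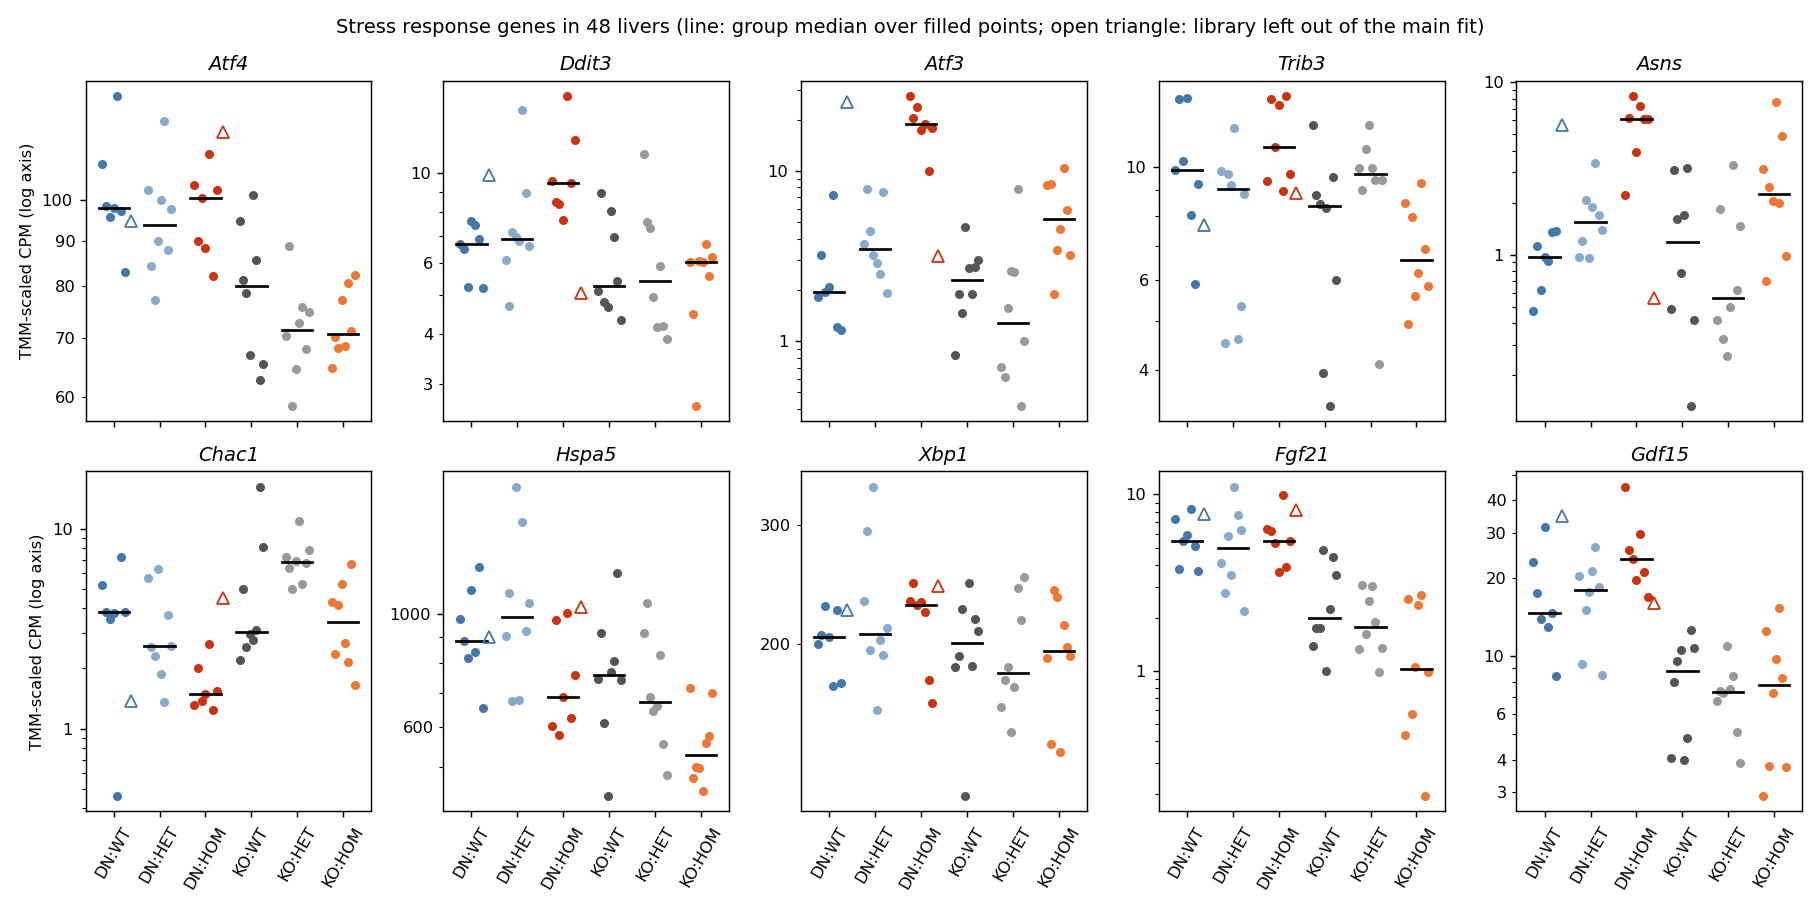
TMM-scaled CPM of the 10 genes on log axes, a point per liver, for DN:WT, DN:HET, DN:HOM, KO:WT, KO:HET and KO:HOM. Lines are group medians over the filled points, and open triangles are the libraries labelled DN:WT animal 10 and DN:HOM animal 12, which for Atf3 lie at 25.4 and 3.16 CPM.

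Atf3 encodes a transcription factor of the ATF/CREB family that is induced by ATF4 and by many other stimuli. Its level in DN:WT livers was 1.16 CPM at the lowest, 1.95 at the median and 7.18 at the highest, and in DN:HOM livers it was 10, 19 and 27.4 CPM. Each of the 7 DN:HOM livers thus lay above all 7 DN:WT livers, the highest of which was animal 17. The fold change on the log2 scale was 2.86 (SE 0.44, adjusted p = 3.5e-07). The library labelled DN:WT animal 10 had 25.4 CPM and the library labelled DN:HOM animal 12 had 3.16 CPM, and putting both back gave a log2 fold change of 1.64 (adjusted p = 0.0073). DN:HET livers ranged from 1.92 to 7.83 CPM with a median of 3.47, and overlapped with DN:WT livers (log2 fold change 0.68, adjusted p = 0.53).

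In the knockout study Atf3 had 0.829 CPM at the lowest, 2.29 at the median and 4.67 at the highest in KO:WT livers, and 1.90, 5.24 and 10.4 CPM in KO:HOM livers. The groups overlapped, and 4 of the 8 KO:HOM livers lay above the highest KO:WT liver. The fold change on the log2 scale was 1.29 (SE 0.41, adjusted p = 0.022), and Atf3 was the gene called of the 10 in this comparison. The fit shares its estimate of spread with the knock-in livers, and over all 48 livers the same comparison gave 1.28 with an adjusted p of 0.10. Without KO:HOM animal 26, the highest liver, it gave 1.11 with an adjusted p of 0.063. The 8 KO:HET livers lay from 0.418 CPM, which rests on 6 reads, to 7.84 CPM in animal 9, with a median of 1.28.

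Asns encodes asparagine synthetase and is among the best known amino acid response genes. It was scarce in wild-type liver, with 0.474 CPM at the lowest, 0.962 at the median and 1.37 at the highest in DN:WT livers, which are 7 to 20 reads. DN:HOM livers had 2.22, 6.06 and 8.23 CPM, and all 7 lay above every DN:WT liver. The fold change on the log2 scale was 2.54 (SE 0.50, adjusted p = 2.7e-05), and 1.66 (adjusted p = 0.0085) over all 48 livers, where the library labelled DN:WT animal 10 had 5.66 CPM and the library labelled DN:HOM animal 12 had 0.562 CPM.

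KO:WT livers held 0.134 CPM of Asns at the lowest, 1.19 at the median and 3.19 at the highest, and KO:HOM livers 0.702, 2.25 and 7.69 CPM. These groups overlapped between 0.702 and 3.19 CPM, and the lowest KO:WT liver, animal 33, had 2 reads. The log2 fold change of 1.08 (standard error 0.46) did not pass the threshold (adjusted p = 0.093). It passed on leaving out KO:WT animal 32 or KO:WT animal 5, with 1.36 and 1.35 and an adjusted p of 0.042 in each case, whereas without KO:HOM animal 22, the highest liver, it was 0.70 (adjusted p = 0.31).

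Ddit3 encodes CHOP, a transcription factor that ATF4 induces and that is tied to cell death under lasting ER stress. DN:WT livers had 5.21 CPM at the lowest, 6.70 at the median and 7.62 at the highest, and DN:HOM livers 7.68, 9.44 and 15.5 CPM. The groups did not overlap, by a margin between 7.62 and 7.68 CPM. The fold change on the log2 scale was 0.64 (SE 0.21, adjusted p = 0.0083), which is a 1.56-fold rise. Over all 48 livers it was 0.45 and no longer called (adjusted p = 0.074).

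KO:HOM livers had 2.66, 6.03 and 6.67 CPM of Ddit3 at the lowest, median and highest, and KO:WT livers 4.33, 5.26 and 8.94 CPM. The ranges overlapped, with a log2 fold change of -0.12 (95% interval -0.52 to 0.28, adjusted p = 0.74). The gene has exons that overlap those of Mbd6, Mars1 and Gm4189 on the opposite strand, so the stranded counts bear on it. A second Ensembl identifier for Ddit3 held 0 reads in all livers and was not used.

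Chac1 encodes a glutathione-degrading enzyme and is a target of ATF4 and CHOP. DN:WT livers had 0.461 CPM at the lowest, 3.84 at the median and 7.24 at the highest, and DN:HOM livers 1.24, 1.49 and 2.65 CPM. The lowest DN:WT liver, animal 17, lay below all DN:HOM livers, and the other 6 DN:WT livers lay above all of them. The fold change on the log2 scale was -1.26 (SE 0.40, adjusted p = 0.0067), and it was called on leaving out each of the 46 livers in turn. Over all 48 livers it was -0.88 (adjusted p = 0.062), where the library labelled DN:WT animal 10 had 1.38 CPM and the library labelled DN:HOM animal 12 had 4.49 CPM. Under library size alone it was -0.83 (adjusted p = 0.06), and under upper-quartile scaling it was -1.17 (adjusted p = 0.011), so the fall was called under TMM and upper-quartile scaling and not under library size alone.

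In the knockout study Chac1 lay between 2.21 and 16.2 CPM in KO:WT livers, with a median of 3.05, and between 1.66 and 6.66 CPM in KO:HOM livers, with a median of 3.42. The highest value, that of KO:WT animal 33, was 16.2 CPM against 8.09 in the next. The log2 fold change was -0.56 (95% interval -1.27 to 0.15, adjusted p = 0.30) and -0.065 (adjusted p = 0.93) without that liver, and the medians stand in the other order than the means of 5.36 ± 4.77 CPM (SD, n = 8) and 3.66 ± 1.74 CPM (SD, n = 8).

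**Figure D2:**
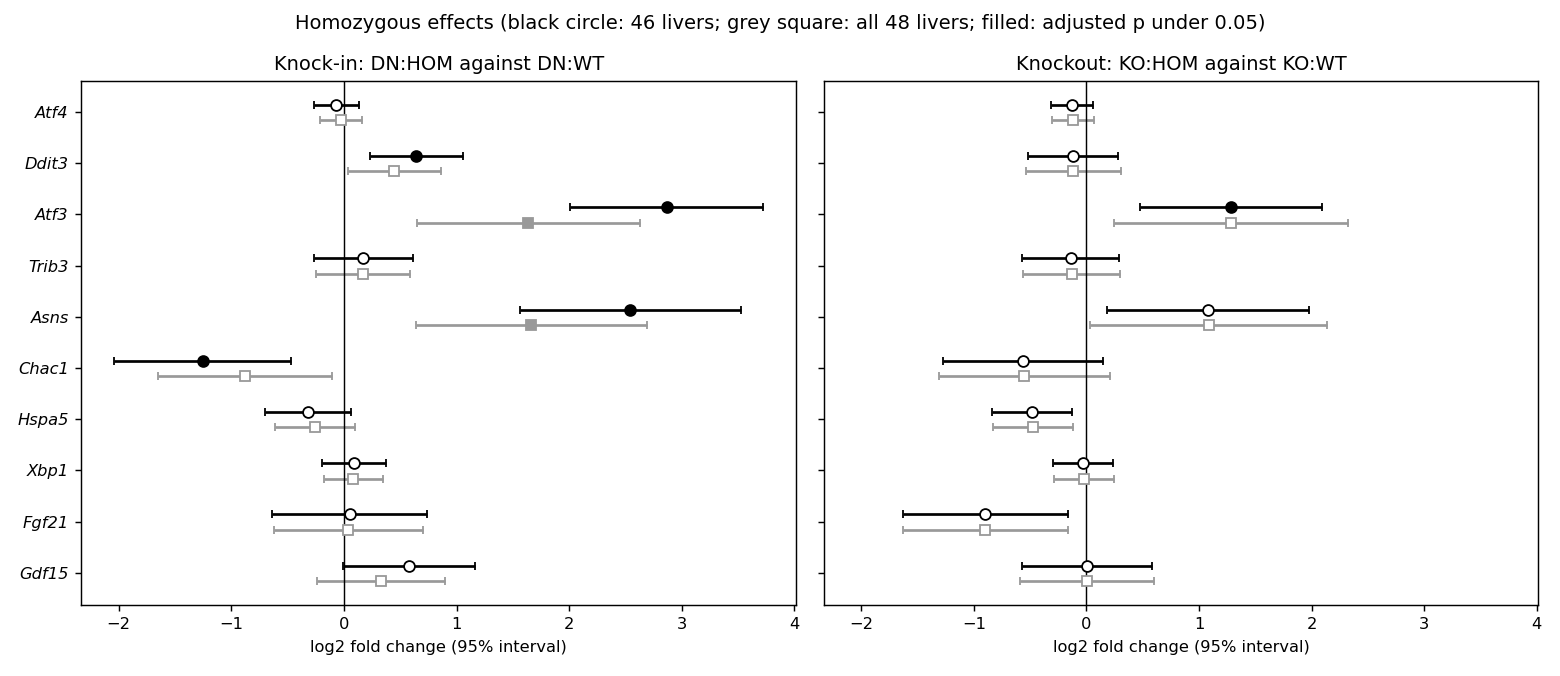
Log2 fold changes of the 10 genes in homozygous against wild-type livers with 95% intervals, knock-in on the left and knockout on the right, over 46 livers (circles) and all 48 (squares), filled where the adjusted p is under 0.05. Over 46 livers Atf3 stands at 2.86 and 1.29, Asns at 2.54 and 1.08, Ddit3 at 0.64 and -0.12, and Chac1 at -1.26 and -0.56.

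Atf4, the central transcription factor of the response, lay between 83.0 and 131 CPM in DN:WT, with a median of 98.0, and between 82.0 and 113 CPM in DN:HOM livers, with a median of 100.4. The groups covered nearly the same range, with a log2 fold change of -0.07 (95% interval -0.26 to 0.13, adjusted p = 0.59). KO:WT livers had 62.8 to 101 CPM and KO:HOM livers 64.7 to 82.3 CPM, a log2 fold change of -0.13 (95% interval -0.31 to 0.06, adjusted p = 0.39).

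Trib3, a pseudokinase induced by ATF4 and CHOP that dampens the response, had a median of 9.88 CPM in DN:WT (5.89 to 13.7) and 10.9 CPM in DN:HOM livers (8.96 to 13.8). Its log2 fold change was 0.17 (95% interval -0.27 to 0.61, adjusted p = 0.53). In the knockout study the medians were 8.39 and 6.56 CPM in KO:WT and KO:HOM livers (log2 fold change -0.14, adjusted p = 0.71).

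Hspa5, the major chaperone of the ER lumen (BiP), was the most abundant of the 10 genes. DN:WT livers had 654 to 1239 CPM with a median of 883, and DN:HOM livers 577 to 1006 CPM with a median of 688. The groups overlapped, and the log2 fold change was -0.32 (95% interval -0.70 to 0.06, adjusted p = 0.15). KO:WT livers had 438 to 1206 CPM with a median of 757, and KO:HOM livers 449 to 714 CPM with a median of 529. The log2 fold change of -0.48 (standard error 0.18) stood just outside the threshold (adjusted p = 0.055). It came under it on leaving out any of 7 single livers. Among these were DN:HET animals 14 and 8 and KO:HET animal 3, which are outside this comparison and share only its fit. Without KO:WT animal 33 the log2 fold change was -0.36 (adjusted p = 0.17). With only KO:HOM and KO:WT livers fitted it was -0.47 and called.

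Xbp1, whose spliced mRNA encodes the transcription factor of the IRE1 branch, had 173 to 227 CPM in DN:WT and 164 to 246 CPM in DN:HOM livers (log2 fold change 0.09, 95% interval -0.19 to 0.37, adjusted p = 0.62). In KO:WT and KO:HOM livers it had 119 to 246 and 139 to 239.9 CPM (log2 fold change -0.03, 95% interval -0.29 to 0.24, adjusted p = 0.91). All 4 ranges overlapped.

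Fgf21, a fasting and stress hormone of the liver, had the same median of 5.42 CPM in DN:WT (3.70 to 8.30) and DN:HOM livers (3.65 to 9.95), with a log2 fold change of 0.05 (95% interval -0.64 to 0.74, adjusted p = 0.91). KO:WT livers had 1.0 to 4.86 CPM with a median of 2.0, and KO:HOM livers 0.194 to 2.69 CPM with a median of 1.02. The lowest KO:HOM liver, animal 27, rests on 3 reads. The log2 fold change of -0.90 (standard error 0.37) was not called (adjusted p = 0.087), and was called on leaving out KO:HOM animal 26 or KO:HOM animal 11, the highest livers of their group, while without KO:WT animal 23 it was -0.71 (adjusted p = 0.19).

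Gdf15, a secreted factor of the TGF-β superfamily that rises under cell stress, had 8.43 to 31.7 CPM in DN:WT with a median of 14.7, and 17 to 45.1 CPM in DN:HOM livers with a median of 23.7. The log2 fold change of 0.58 (95% interval -0.01 to 1.16) was not called (adjusted p = 0.094). Without DN:WT animal 13, the highest DN:WT liver, it was 0.77 with an adjusted p of 0.029, and without DN:HOM animal 9, the highest DN:HOM liver, it was 0.39 with an adjusted p of 0.28. In the knockout study the medians were 8.79 CPM in KO:WT and 7.76 CPM in KO:HOM livers, with a log2 fold change of 0.0020 (95% interval -0.58 to 0.58).

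In homozygous knockout livers 1 of the 10 genes was called, against 19.4% of all genes tested (11.5% higher and 7.87% lower, with groups that did not overlap in 2.49%), and over all 48 livers edgeR called 0 of 10, with 4 at an unadjusted p under 0.05, against 12.9% of all genes. By DESeq2 over the 46 livers it was also 1 of 10. Before adjustment, over the 46 livers, Atf3, Hspa5, Fgf21 and Asns had p-values of 0.0032, 0.011, 0.021 and 0.023. The median log2 fold change of the 10 genes was -0.12, against -0.02 over all genes.

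The homozygous effects of the 2 studies differed for Atf3, by 1.58 on the log2 scale (standard error 0.59, adjusted p = 0.034), and for Ddit3, by 0.76 (standard error 0.29, adjusted p = 0.040). Of all genes tested, 34.7% differed in this way, 16.5% higher and 18.3% lower. The 10 genes held 2 higher and 0 lower, which is near the share of all genes that were higher. Over all 48 livers the difference was 0.35 for Atf3 (adjusted p = 0.80) and 0.57 for Ddit3 (adjusted p = 0.21), where 10.5% of all genes were called. The call of Atf3 was lost on leaving out any of 10 single livers, and that of Ddit3 on leaving out any of 12, with an adjusted p of at most 0.073 and 0.091. Asns had a difference of 1.46 (adjusted p = 0.087), and that of Chac1 was -0.69 (95% interval -1.75 to 0.36).

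The heterozygotes of each study were set against wild-type livers to ask whether a single altered copy moved these genes. In edgeR's test 0 of 10 genes were called in either study, where 2.3% of all genes were called in the knock-in (2.23% higher and 0.07% lower) and 0.0191% in the knockout study (0.0127% higher and 0.00636% lower). Over all 48 livers these shares of all genes were 0.25% and 0.0192%, under library size alone 2.94% and 0.0255%, and the 10 genes had 0 calls in each. DESeq2 also called 0 of the 10 genes in each, and 0 had an unadjusted p under 0.05. The largest differences were those of Asns at 0.79 (95% interval -0.21 to 1.78) and Atf3 at 0.68 (95% interval -0.16 to 1.51) in DN:HET livers, and both intervals included 0. Over all 48 livers they were 0.09 for Asns and -0.38 for Atf3, so the latter turned sign. DN:HET animal 20 was high for Ddit3, with 14.3 CPM against 8.94 in the next liver, and for Asns, with 3.39 against 2.06 CPM.

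The wild-type livers of the 2 studies differed from each other in 3 of the 10 genes, against 12% of all genes tested (5.54% higher and 6.47% lower in the knock-in study, with groups that did not overlap in 1.75%). Gdf15 was higher in DN:WT than in KO:WT livers by 1.11 on the log2 scale (standard error 0.30, adjusted p = 0.0098), Fgf21 by 1.10 (standard error 0.36, adjusted p = 0.035) and Atf4 by 0.36 (standard error 0.10, adjusted p = 0.011). Their ranges overlapped. Leaving out any of 8 single livers ended the call of Fgf21, with an adjusted p of at most 0.076. The levels of DN:HOM and KO:HOM livers were therefore not compared with each other directly.

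Per kilobase of the canonical transcript, in DN:WT livers Hspa5 had the highest mean level with 188 CPM per kilobase, followed by Xbp1 with 102 and Atf4 with 58.5. The hormones Gdf15 and Fgf21 had 9.12 and 5.87, the regulators Ddit3 and Trib3 6.65 and 4.83, and Chac1, Atf3 and Asns 2.40, 1.34 and 0.199. In DN:HOM livers Atf3 stood at 9.81 and Asns at 1.16, above Chac1 at 1.0. These are levels, and the lengths come from a later annotation release than the alignment.

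The TMM scaling matters in the knock-in study, since the TMM factors were 0.922 to 0.983 in DN:WT and 1.20 to 1.33 in DN:HOM livers. Under library size alone, which was added once results were known, the median log2 fold change of all genes moved from -0.01 to 0.42 in the knock-in and from -0.02 to 0.09 in the knockout comparison. The share of higher genes among those called went from 49.3% to 84.2% and from 59.4% to 85.7%, and with upper-quartile scaling to 57.6% and 69.5%. Under library size alone 7 of the 10 genes were called higher in DN:HOM livers (Atf3, Asns, Ddit3, Gdf15, Trib3, Xbp1 and Atf4). Beside them stand 70.1% of all genes called in either direction, 84.2% of those called being higher. Of the 7, Atf4 at 0.37 lay below the shift of all genes, Trib3 at 0.59 and Xbp1 at 0.52 lay above it, and Gdf15 stood at 1.01. Atf3, Asns and Ddit3 were higher under all 3 scalings, and the sign of Hspa5 turned to 0.11.

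**Figure D3:**
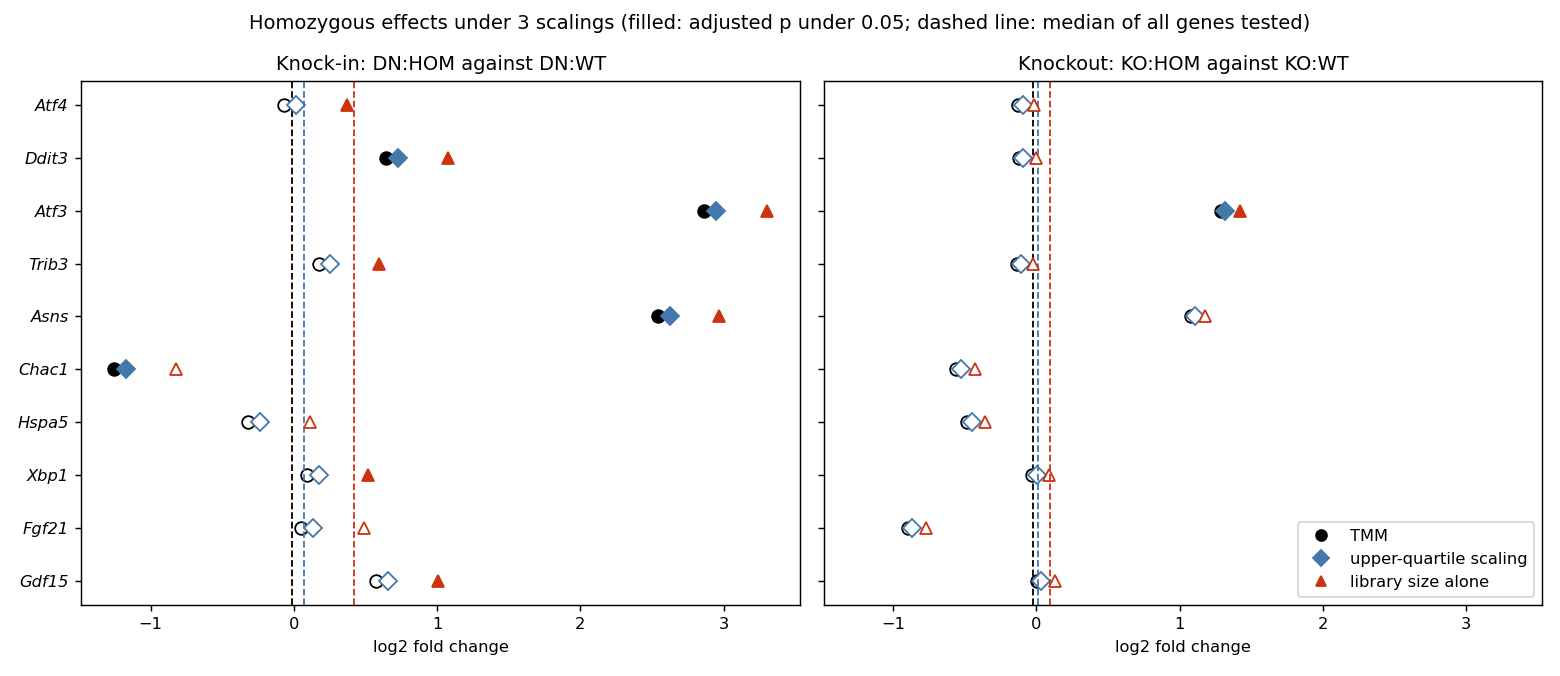
Log2 fold changes of the 10 genes in homozygous against wild-type livers under TMM (circles), upper-quartile scaling (diamonds) and library size alone (triangles), filled where the adjusted p is under 0.05. Dashed lines are the medians of all genes tested, which for library size alone lie at 0.42 in the knock-in and 0.09 in the knockout comparison, and the 10 genes shift with them.

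The rest of the pathway was followed with 10 lists written by hand. Their counts stand beside the shares of all genes called, which were 29.1% higher and 30% lower in DN:HOM livers and 11.5% higher and 7.87% lower in KO:HOM livers, and 70.1% and 19.5% in either direction under library size alone, of which 84.2% and 85.7% were higher. Among the 33 ATF4 targets, 13 rose and 9 fell in DN:HOM livers, with a median log2 fold change of -0.06, which is near the shares of all genes. Slc7a11, the cystine transporter, rose by 6.34 (adjusted p = 2.6e-08), from 0.0967 ± 0.0927 CPM (SD, n = 7) to 8.65 ± 3.64 CPM (SD, n = 7). Phgdh, the first enzyme of serine synthesis, rose by 4.08 (adjusted p = 6.8e-06) and Stc2, which encodes stanniocalcin 2, by 2.46 (adjusted p = 3.4e-06). All 3 were near 0 in DN:WT livers, at 0.0967, 0.0598 and 0.255 CPM, so the size of their change rests on few reads. Levels this low would not pass the low-count filter alone, so these genes were tested through the groups where they were higher. Their fold changes and adjusted p-values are therefore descriptions, and no conclusion is drawn from them. Over all 48 livers each was called, with 2.58, 2.05 and 1.85. With library size alone, 19 of the list were higher and 4 lower.

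In KO:HOM livers 3 of these targets rose and 7 fell, with a median of -0.02, beside 11.5% of all genes higher and 7.87% lower. Slc7a11 rose by 4.46 (adjusted p = 1e-04), from 0.111 to 2.62 CPM, and by the same amount over all 48 livers (adjusted p = 0.0053). At 0.111 CPM in KO:WT livers, this change too rests on few reads, and the gene was tested through the groups where it was higher. No conclusion is drawn from its size or its adjusted p. Slc38a2, an amino acid transporter, fell by 0.64 (adjusted p = 0.0013) and Atf5, a transcription factor related to ATF4, fell by 0.61 (adjusted p = 0.0068). Atf4 itself was called in neither comparison, as given above. Of the list, 4 were higher and 5 lower with library size alone.

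Of the 12 genes for eIF2α kinases, phosphatase subunits and the exchange factor eIF2B, 2 rose and 7 fell in DN:HOM livers, but 8 were higher and 0 lower under library size alone, where most of all genes called were higher as well. Eif2ak3, which encodes the ER kinase PERK, rose by 0.60 (adjusted p = 0.0012) and Ppp1r15a, which encodes the stress-induced phosphatase subunit GADD34, rose by 0.55 (adjusted p = 0.00039). Eif2ak2, which encodes the kinase PKR, fell by 0.49 (adjusted p = 1.9e-05). Among KO:HOM livers Eif2b1 and Eif2b4 fell by 0.21 and 0.20 (adjusted p = 0.033 for each), neither of which was called over all 48 livers or under library size alone.

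The 8 ER stress sensors and membrane-bound factors held 2 genes that rose and 4 that fell in DN:HOM livers, against 5 higher and 0 lower under library size alone. Creb3l2 rose by 0.60 (adjusted p = 0.0090), Creb3l3, which encodes the liver factor CREBH, fell by 0.51 (adjusted p = 5e-06), and Atf6 fell by 0.35 (adjusted p = 0.00079). Atf6 was also the gene of the list called in KO:HOM livers, where it fell by 0.31 (adjusted p = 0.0049), and under library size alone edgeR called none of the list there.

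Of the 17 ER chaperones and folding enzymes other than Hspa5, 0 rose and 6 fell in DN:HOM livers under TMM, whereas 5 were higher and 0 lower under library size alone. Hyou1, a chaperone related to HSP70, fell by 0.65 (adjusted p = 0.026), the oxidase gene Ero1b by 0.50 (adjusted p = 0.0071) and Dnajb11, a co-chaperone of BiP, by 0.42 (adjusted p = 0.013). For KO:HOM livers, Hyou1 fell by 0.70 (adjusted p = 0.034) and Txndc5 by 0.20 (adjusted p = 0.031), and neither was called under library size alone. Over all 48 livers edgeR called 0 of the list there, with 9 at an unadjusted p under 0.05. Over 46 livers DESeq2 called 2.

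The 13 genes of ER-associated degradation, which returns misfolded protein to the cytosol, held 1 that rose and 7 that fell in DN:HOM livers, with a median of -0.28. Edem1 fell from 209 ± 18.1 CPM (SD, n = 7) to 115 ± 10.4 CPM (SD, n = 7), a log2 fold change of -0.86 (adjusted p = 2.2e-11). Sel1l, the partner of the ligase HRD1, fell by 0.84 (adjusted p = 1e-08) and Derl2 by 0.82 (adjusted p = 4.7e-11). In the knockout comparison 0 rose and 5 fell, with a median of -0.31, among them Herpud1 by 0.61 (adjusted p = 0.0090), Derl2 by 0.47 (adjusted p = 4e-05) and Edem1 by 0.46 (adjusted p = 5.3e-05). These shares, 7 of 13 and 5 of 13 lower, stand beside 30% and 7.87% of all genes, and over all 48 livers 7 and 3 of 13 were lower. Under library size alone 5 were higher and 3 lower in DN:HOM, and 1 higher and 3 lower in KO:HOM livers.

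Of 14 translocon and secretory pathway genes known as XBP1 targets, 4 rose and 3 fell in DN:HOM livers, over all 48 livers 1 was higher and 2 lower, and 12 were higher and 0 lower under library size alone. Fkbp11, a prolyl isomerase of the ER, rose by 0.98 (adjusted p = 1.8e-05), and the COPII coat genes Sec24d and Sec23b fell by 0.63 (adjusted p = 2.4e-05) and 0.45 (adjusted p = 0.0017). In KO:HOM livers 0 rose and 2 fell, Sec61a1 by 0.29 (adjusted p = 0.010) and Ssr2 by 0.28 (adjusted p = 0.012), and neither was called under library size alone.

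All 8 genes of mitochondrial stress fell in DN:HOM livers over 46 and over 48 livers, but under library size alone 1 was higher and 2 lower. Hspd1, the matrix chaperonin, fell by 0.72 (adjusted p = 3.4e-09), Dnaja3 by 0.62 (adjusted p = 6e-08) and Oma1, the inner membrane protease that signals to the stress response through DELE1, by 0.56 (adjusted p = 2.2e-07). For KO:HOM livers edgeR and DESeq2 called 0 of the 8, with 2 at an unadjusted p under 0.05 in edgeR. Of 10 cytosolic heat shock genes 2 fell in DN:HOM livers, Hsph1 by 0.90 (adjusted p = 0.0057) and Hsp90ab1 by 0.52 (adjusted p = 2.6e-05), while 3 were higher and 0 lower under library size alone, and 0 were called in KO:HOM livers by edgeR or DESeq2, with 0 at an unadjusted p under 0.05 in edgeR.

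The 12 immediate early genes, which respond to growth signals and injury within minutes and share inducers with Atf3, held 9 that rose and 2 that fell in DN:HOM livers, with a median of 1.86. Fosb rose by 3.69 (adjusted p = 6.1e-07), Fos by 3.33 (adjusted p = 4.4e-11) and Ier3 by 3.19 (adjusted p = 2.7e-08), and over all 48 livers each was called, with 1.78, 1.81 and 1.74, and under library size alone 10 of the list were higher. For KO:HOM livers, 2 rose and 2 fell, Ier3 by 1.56 (adjusted p = 0.0053) and Klf6 by 0.88 (adjusted p = 0.025) among the former, and Zfp36, which was lower by 0.54 (adjusted p = 0.0082), among the latter, and over all 48 livers neither Ier3 nor Klf6 was called there.

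Of the 7 receptor genes of FGF21 and GDF15, 5 passed the filter. In DN:HOM livers Klb, the co-receptor β-klotho, fell from 29.7 ± 4.18 CPM (SD, n = 7) to 10.9 ± 2.10 CPM (SD, n = 7), a log2 fold change of -1.45 (adjusted p = 2e-11), and it was -1.09 (adjusted p = 4e-05) over all 48 livers. Fgfr1 rose by 1.91 (adjusted p = 3.5e-08) and Fgfr2 by 0.72 (adjusted p = 2.5e-05). In the knockout comparison Klb fell by 0.79 (adjusted p = 4.5e-05) and Fgfr1 rose by 0.84 (adjusted p = 0.010), the latter no longer called over all 48 livers (adjusted p = 0.064). The hormone Fgf21 was called in neither comparison, as given above. The counts with library size alone were 4 higher and 1 lower in the knock-in, and 1 and 1 in the knockout comparison.

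**Figure D4:**
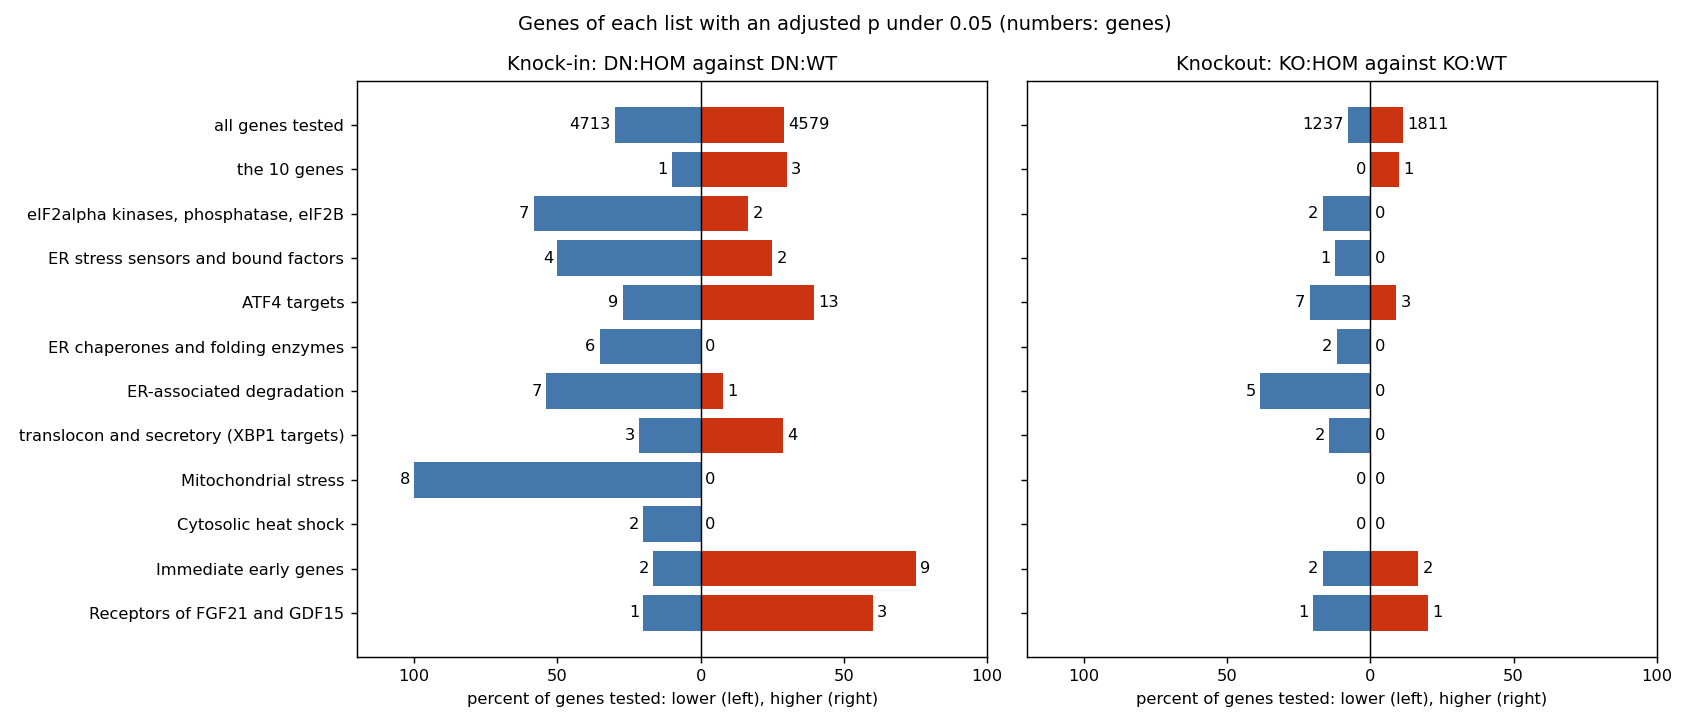
Percent of the tested genes of each list with an adjusted p under 0.05, lower to the left and higher to the right, with the number of genes beside each bar, in homozygous against wild-type livers over 46 livers. The 10 genes stand at 3 higher and 1 lower in the knock-in and 1 higher in the knockout comparison, beside 29.1% and 11.5% of all genes higher.

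Markers of other cell types moved with genotype as well. Their counts stand beside 29.1% of all genes higher and 30% lower in DN:HOM livers, and 11.5% higher and 7.87% lower in KO:HOM livers. Over all 48 livers 48% and 12.9% of all genes were called in either direction. The summed level of 10 macrophage markers was 75.1 to 151 CPM in DN:WT and 1037 to 1617 in DN:HOM livers, and 53.0 to 169 in KO:WT and 244 to 1033 in KO:HOM livers. Of the 10, 10 and 9 were called higher, or 9 and 7 over all 48 livers. The 6 cholangiocyte markers summed to 30.5 to 69.9 CPM in DN:WT and 728 to 1075 in DN:HOM livers, 6 of 6 higher, and the 8 stellate cell markers to 185 to 267 and 779 to 1069 CPM, 7 of 8 higher. The 7 neutrophil markers went from 3.5 to 6.5 CPM up to 31.9 to 83.3 CPM, with 6 of the 6 tested called higher (4 over all 48 livers), and Ly6g was at 0 in all DN:WT and KO:WT livers. In the knockout comparison 1 of 6 cholangiocyte, 5 of 8 stellate cell and 3 of 6 tested neutrophil markers were higher, and over all 48 livers these counts were 0, 2 and 1. The 8 T cell markers summed to 2.43 to 5.17 CPM in DN:WT, 5.26 to 9.30 in DN:HOM, 2.47 to 7.80 in KO:WT and 8.25 to 31.1 in KO:HOM livers. Of the 8, 4 and 8 were higher, or 1 and 8 over all 48 livers. In wild-type livers the neutrophil and T cell markers were scarce. Some may have passed the low-count filter only through livers where they were higher. Their calls are therefore descriptions, and no conclusion is drawn from them. The 8 B and plasma cell markers, of which Tnfrsf17 was at 0 in all DN:WT and KO:WT livers, summed to at most 30.7 CPM, with 1 higher and 1 lower of 6 tested in the knock-in comparison, neither called over all 48 livers. The 6 endothelial markers summed to 72.0 to 149 CPM over these 4 groups, with 1 higher and 4 lower in the knock-in and 1 and 1 in the knockout comparison. With library size alone, 1 endothelial marker was higher and 1 lower in each comparison. The 10 hepatocyte markers summed to 70925 to 85504 CPM in DN:WT, 42612 to 58485 in DN:HOM, 81377 to 107779 in KO:WT and 68034 to 91294 in KO:HOM livers, with 6 of 10 lower and 1 higher in each comparison (over all 48 livers, 5 and 3 lower). Under library size alone 4 hepatocyte markers were higher and 4 lower in the knock-in, and 1 higher and 3 lower in the knockout comparison. In DN:HET livers 6 of the 8 T cell and 4 of the 10 macrophage markers were higher and 0 lower, against 2.23% of all genes higher. Over all 48 livers 2 and 0 of them were higher. Their sums reached 36.9 and 839 CPM in DN:HET livers. In KO:HET livers edgeR called 0 of either list. The part of these shifts in the values of Atf3, Asns, Ddit3 and Chac1 was not tested. Chac1, Trib3 and Hspa5 lie on chromosome 2, as does Nr1h3, at distances of 28.1, 61.1 and 56.3 Mb.

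Within groups, the livers of a group also differed from each other, and these deviations were compared by taking the group mean off the log2 CPM of each gene over the 46 livers. Among the 45 pairs of the 10 genes the median Pearson r was 0.01, and 1 pair had an r of at least 0.5. That pair was Fgf21 and Gdf15, with an r of 0.66 and a Spearman rho of 0.70, and an r of 0.73 without the 2 livers farthest out in Fgf21 and of 0.61 without the 2 farthest out in Gdf15. The next highest pairs were Ddit3 with Hspa5 at 0.49 and Ddit3 with Atf4 at 0.44, and the lowest were Xbp1 with Fgf21 at -0.45 and Atf4 with Chac1 at -0.44. Without the 2 livers farthest out in the gene named first, these became 0.41, 0.41, -0.40 and -0.28, so the last rests in part on those livers. These are descriptions over livers that share libraries, depth and scaling.

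Of 13244 genes whose mean reached 1 CPM, the ones most like Hspa5 in this respect were Hyou1 (r = 0.96), Manf (0.94) and Syvn1 (0.92), a chaperone, a secreted ER stress protein and the ligase of ER-associated degradation. For Atf3 they were Cd63 (0.88), Mrc2 (0.82) and Ywhah (0.82), and for Xbp1 they were Chlsn (0.81), Gm16551 (0.72) and C3 (0.68). For Ddit3 they were Gm15344 (0.77), Tmem39a (0.70) and Ccdc134 (0.69), for Atf4 Slx9 (0.69), Tuba1c (0.68) and Yrdc (0.67), and for Chac1 Arid5b (0.76), Klf9 (0.69) and Hyal1 (0.66). Those of Trib3 were Nr1d1 (0.66), Jade1 (0.63) and Tbc1d10a (0.62), and those of Asns were Tff3 (0.63), Adamts5 (0.61) and Gm45470 (0.60). Fgf21 had 2010003K11Rik (0.72), Trip10 (0.72) and Adamts1 (0.69), and Gdf15 had Fgf21 (0.66), Jun (0.62) and Eif4g3 (0.62). Hspa5 thus had the closest neighbours of the 10 genes and Asns the least close. Hspa5 was also the most abundant of the 10 genes, while Asns was scarce and rests on few reads. The part of read depth in this order was not tested.

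**Figure D5:**
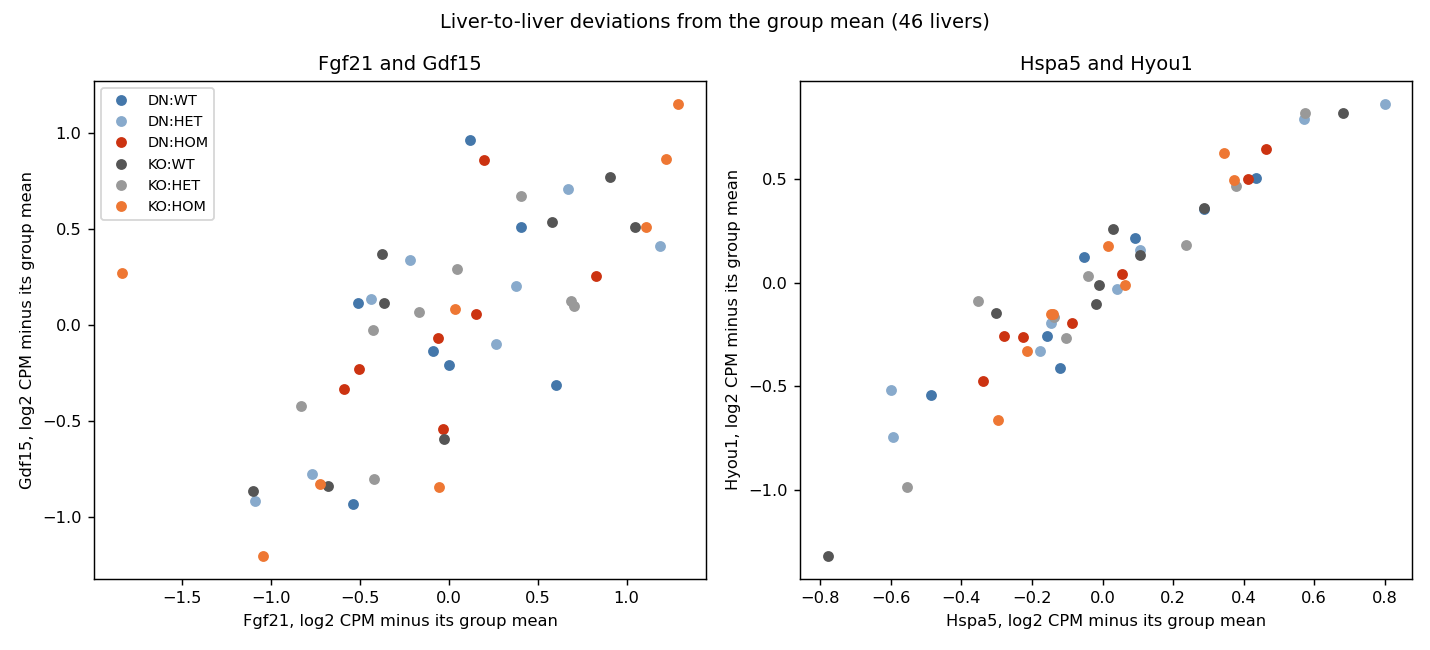
Deviations of log2 CPM from the group mean, a point per liver over 46 livers coloured by group, for Gdf15 against Fgf21 on the left and Hyou1 against Hspa5 on the right. The points of the first pair scatter with an r of 0.66 and those of the second lie close to a line with an r of 0.96.

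The genes are annotated in GRCm39 as follows. Atf4 (ENSMUSG00000042406) lies on chromosome 15 from 80139372 to 80141745, Ddit3 (ENSMUSG00000025408) on chromosome 10 from 127124268 to 127132163, and Atf3 (ENSMUSG00000026628) on chromosome 1 from 190902493 to 190950241. Trib3 (ENSMUSG00000032715) lies on chromosome 2 from 152179337 to 152191958, Hspa5 (ENSMUSG00000026864) on chromosome 2 from 34661982 to 34668880, and Chac1 (ENSMUSG00000027313) on chromosome 2 from 119180757 to 119184866. Asns (ENSMUSG00000029752) lies on chromosome 6 from 7671667 to 7728461, Xbp1 (ENSMUSG00000020484) on chromosome 11 from 5470606 to 5483027, Fgf21 (ENSMUSG00000030827) on chromosome 7 from 45263301 to 45266963, and Gdf15 (ENSMUSG00000038508) on chromosome 8 from 71082038 to 71091537. Exons of Hspa5, Xbp1, Asns and Fgf21 overlap those of Rabepk, Ccdc117, 1700012J15Rik and Fut1 on the opposite strand, which the stranded counts set apart.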

How the data were processed

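Stranded mRNA libraries of 48 livers were aligned by the authors with STAR 2.5.0a to GRCm39, Ensembl release 104, and the deposited files hold raw read counts per gene, unstranded and by strand. Of the stranded columns the fuller was used, at 6.97 to 8.62 times the other, and 24.0% to 35.0% of reads named no gene and stayed out. Groups were taken from the genotype labels. In R 4.3.3, edgeR 4.0.16 (filterByExpr, TMM, quasi-likelihood test on 6 group means, Benjamini-Hochberg over all 15711 genes, threshold 0.05) was fitted to 46 livers and tested 6 comparisons, and the model was tested on simulated data. Standard errors come from the fold change and its F statistic, and 95% intervals are 1.96 of them each way. Log2 CPM for deviations used a prior count of 2. Alternatives were all 48 livers, either library put back, no liver under 10000000 reads, DESeq2 1.42.0, upper-quartile scaling, library size alone (added after the data were seen), no filter, a filter at a mean of 1 CPM, counts without strand, fits of 1 study or of only the groups compared, and each of 46 livers left out. The 10 genes, the 10 pathway lists and the 8 marker lists were chosen with earlier results of these data known. Named from each list are the 3 genes with the largest change among those called in each homozygous comparison, and the 3 genes most like each of the 10. The labels name separate animals, each sequenced once. Symbols and positions come from GENCODE M39, which held 98.8% of the identifiers. Python 3.11.15 with pandas 2.3.3, numpy 2.4.6, scipy 1.17.1 and matplotlib 3.10.9 was used.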

Additional observations from a re-analysis of the deposited data

Results flagged for a closer look

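A liver whose gap to its nearest neighbour was large for the range of its group was found in 9 of the 60 combinations of gene and group, where chance gives about 1 in 20. The library labelled DN:WT animal 10 was high for Atf3 (25.4 CPM, next 7.18) and Asns (5.66 CPM, next 1.37), and the library labelled DN:HOM animal 12 was high for Chac1 (4.49 CPM, next 2.65). DN:HET animal 20 was high for Ddit3 (14.3 CPM) and Asns (3.39 CPM), and KO:HET animal 9 for Atf3 (7.84 CPM, next 2.60). KO:WT animal 33 was high for Chac1 (16.2 CPM), DN:HOM animal 9 for Gdf15 (45.1 CPM, next 29.7), and KO:HET animal 15 was low for Trib3 (4.11 CPM, next 9.0). The homozygous effects of the 2 studies differed by 1.58 on the log2 scale for Atf3 and by 0.76 for Ddit3, larger in the knock-in study, in edgeR's test of the difference over 46 livers (adjusted p = 0.034 and 0.040).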

How the results depend on the processing

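Of the 10 genes, 4 were called in the homozygous knock-in comparison, 2 over all 48 livers and 7 under library size alone, and leaving out each liver in turn gave 4 to 5. In the homozygous knockout comparison 1 was called, 0 over all 48 livers and with DN:WT animal 10 put back, 2 with the compared groups alone, and 1 to 2 on leaving out each liver. For the difference between the studies 2 were called, 0 over all 48 livers, with DN:WT animal 10 put back or with DN:HOM animal 12 put back, 1 without the low-count filter, with unstranded counts and without the 2 livers of low depth, 5 under library size alone, and 0 to 3 on leaving out each liver. Of all genes, 34.7% were called for this difference over the 46 livers, 10.5% over all 48 and 46.2% under library size alone. The 5 of 10 under library size alone, all of them higher, stand beside that 46.2%, of which 81.6% were higher. No conclusion is drawn from this count. Between the wild-type groups 3 were called, and 2 to 3 on leaving out each liver. The heterozygous counts stayed at 0 in every setting run. The cause of these moves was not tested.

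Outside the fits that leave out a single liver, the signs that turned were those of values not called over the 46 livers. In the homozygous knock-in comparison these were Atf4 (0.37 under library size alone, 0.018 under upper-quartile scaling), Hspa5 (0.11 under library size alone) and Fgf21 (-0.022 with DN:WT animal 10 put back). In the homozygous knockout comparison they were Xbp1 (0.086 under library size alone, 0.0054 under upper-quartile scaling) and Gdf15 (-0.00051 with DN:WT animal 10 put back, -0.0077 in DESeq2, -0.0013 without the low-count filter). In the heterozygous knock-in comparison they were Atf3 (-0.38 over all 48 livers, -0.39 with DN:WT animal 10 put back), Fgf21 (0.0044 under library size alone) and Gdf15 (0.019 under library size alone). In the heterozygous knockout comparison they were Ddit3 (-0.024) and Atf3 (8.8e-05), both without the 2 livers of low depth, and between the wild-type groups Asns (0.17 over all 48 livers and with DN:WT animal 10 put back). Leaving out single livers turned further signs of values not called, such as Xbp1 and Hspa5 in the heterozygous knockout comparison (up to 0.032 and 0.023), Atf4 in the difference between the studies (-0.0099) and Atf3, Xbp1 and Chac1 between the wild-type groups (-0.32, -0.050 and 0.066). No paired analysis was possible because the labels give no replicate numbers that pair livers across groups. Depth limits Asns, Atf3 and Fgf21, whose lowest counts are 2 or 3 reads.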
